A study of Rattus norvegicus with 6 samples.

Results

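The miRNAs described here come from the imprinted Dlk1-Dio3 region of rat chromosome 6. They were chosen by name alone, as every miRNA on the array that carries 1 of 44 miRNA numbers known from this region, with any letter or arm. All 44 numbers were found, and they gave 90 of the 758 miRNAs on the array. Of these 90, 6 were detected on at least 1 array and 84 on none, and 0 of the 6 passed an adjusted p of 0.05 in limma between infarcted and sham-operated hearts. Total RNA of the myocardium of male Sprague-Dawley rats was hybridised to Agilent Rat miRNA arrays of 1 colour, where Cy3-labelled RNA binds short probes and a signal in array units is read from spot brightness. The model group held 3 rats whose left anterior descending coronary artery had been tied, a surgical model of acute myocardial infarction (AMI), and its tissue came from the infarct marginal zone. The control group held 3 sham-operated rats, in which the thread was passed without tying. The sample titles of both groups name the myocardium without a zone. The marginal zone is taken from the paper, which names no separate zone for the sham-operated hearts. Infarction and the place of sampling therefore cannot be told apart. All rats were sampled 4 weeks after surgery, 1 rat per array. The labels give no age, genotype or drug treatment.

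The Dlk1-Dio3 region is a large imprinted domain of mammals. Its coding genes Dlk1, Rtl1 and Dio3 are expressed from the paternal chromosome, while the long noncoding RNA Meg3, the RNA antisense to Rtl1, tandem snoRNAs and the miRNAs are expressed from the maternal chromosome. A miRNA is cut from a hairpin precursor whose arms can each give a mature strand, called 5p and 3p, and the seed, bases 2 to 8 of that strand, pairs with target mRNAs. The miRNAs of this region are known chiefly from the embryo, the placenta and the brain, and several of them have been studied in cardiac and vascular disease.

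Mature sequences were taken from RefSeq (rat assembly GRCr8) and matched by name for 88 of the 90 miRNAs, from 48 precursor genes. The deposited files name no genome build, so positions are those of GRCr8. The 6 detected miRNAs carry the findings and are shown first, written from the 5′ end with the seed in capitals.
miR-409a-3p: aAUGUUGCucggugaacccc
miR-487b-3p: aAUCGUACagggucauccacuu
miR-494-3p: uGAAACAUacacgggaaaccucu
miR-667-3p: uGACACCUgccacccagcccaa
miR-668: uGUCACUCggcucggcccacuacc
miR-770-3p: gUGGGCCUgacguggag

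All 6 lie on the plus strand of chromosome 6, miR-770-3p at chr6:134298129-134298145, miR-494-3p at chr6:134550163-134550185, miR-667-3p at chr6:134555392-134555413, miR-487b-3p at chr6:134562939-134562960, miR-668 at chr6:134570949-134570972 and miR-409a-3p at chr6:134579231-134579250. In the RefSeq gene table the precursor of miR-770-3p overlaps Meg3. The precursors of miR-494-3p and miR-667-3p overlap the gene LOC102555254, and those of miR-487b-3p, miR-668 and miR-409a-3p overlap LOC120103623. The precursor of miR-409a-3p also overlaps Mir3581, which gives miR-409b from the opposite strand. Every one of the 6 seeds was held by 1 member alone, and no other miRNA on the array with a known sequence shared it. Among the 88 sequences there were 81 seeds, and 13 members shared 6 of them. The seed held by 3 members belonged to the 5p arms of miR-410, miR-494 and miR-496, none of which was detected. The seed of miR-329-3p was also that of miR-362-3p, and the seed of miR-377-5p that of miR-672-5p. In both of these pairs the miRNA from outside the region was detected and the member was not. The seed of miR-376c-3p was also that of miR-741-5p, and neither of these was detected.

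The other arm of 5 of the 6 precursors was on the array, and none of these was detected on any array. They are shown beside miR-409b, which comes from the opposite strand of the same stretch and was not detected either.
miR-409a-5p: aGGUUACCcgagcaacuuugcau
miR-487b-5p: aGUGGUUAucccuguccucuucg
miR-494-5p: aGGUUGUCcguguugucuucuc
miR-667-5p: cGGUGCUGguggagcagugagcac
miR-770-5p: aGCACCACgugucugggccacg
miR-409b: aGGGGUUCaccgagcaacauucg

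Of the 48 precursor genes, 6 had 1 detected arm, 42 had none and 0 had more than 1. Of the 48, 40 had 2 measured arms with a mature sequence. MiR-127-5p and miR-136-5p, for which no sequence was found, were also on the array and were not detected.

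A probe was counted as detected where its signal was over 3 times its error, and a miRNA where at least 1 of its probes was. The signal of a miRNA was the sum of its detected probes. Each of the 90 miRNAs had 16 spots, divided among 2 to 4 probes. The number of members detected on control arrays 1, 2 and 3 was 6, 5 and 6, and it was 6 on each of the 3 model arrays. As a share of the 90 members this was 5.56% to 6.67%, where the share of the 668 other miRNAs was 29.9% to 32.3%. Over all 6 arrays, 6.67% of the members and 34.4% of the other miRNAs were detected at least once. The members were chosen by name, so these shares describe the array and carry no test. No spot of a member was saturated.

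**Figure D1:**
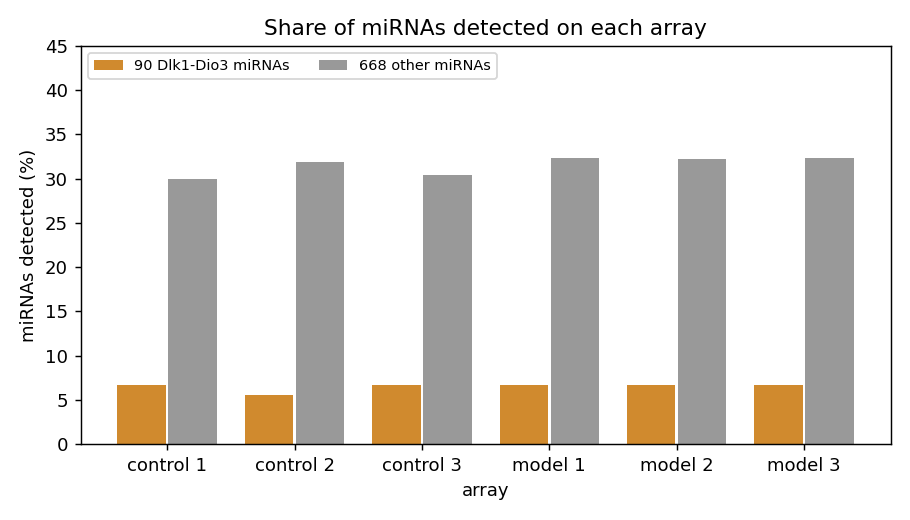
Share of miRNAs detected on each of the 6 arrays (y axis, percent), for the 90 miRNAs of the Dlk1-Dio3 region and the 668 other miRNAs. Each bar is 1 array. The members stay between 5.56% and 6.67% on every array, and the other miRNAs between 29.9% and 32.3%.

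By position, the members fell into 4 groups, whose order along the chromosome is that of the 57 miRNA genes of the span in the RefSeq table. The first group lies on the side of Meg3 and holds 11 miRNAs of miR-770, miR-673, miR-493, miR-337, miR-540 and miR-665. Of these 11, 1 was detected, miR-770-3p, on 5 arrays. The second group is antisense to Rtl1, whose transcript its miRNAs can pair with perfectly, and holds 9 miRNAs of miR-431, miR-433, miR-127, miR-434 and miR-136, of which 0 were detected. The third group, between Rtl1 and miR-379, holds 3 miRNAs of miR-341 and miR-370, of which 0 were detected. The fourth and largest group, the array from miR-379 to miR-410, holds 67 miRNAs, of which 5 were detected, each on all 6 arrays. In gene order these 5 came from the genes at ranks 26, 31, 38, 46 and 53 of 57, so that undetected miRNAs lay between all of them.

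**Figure D2:**
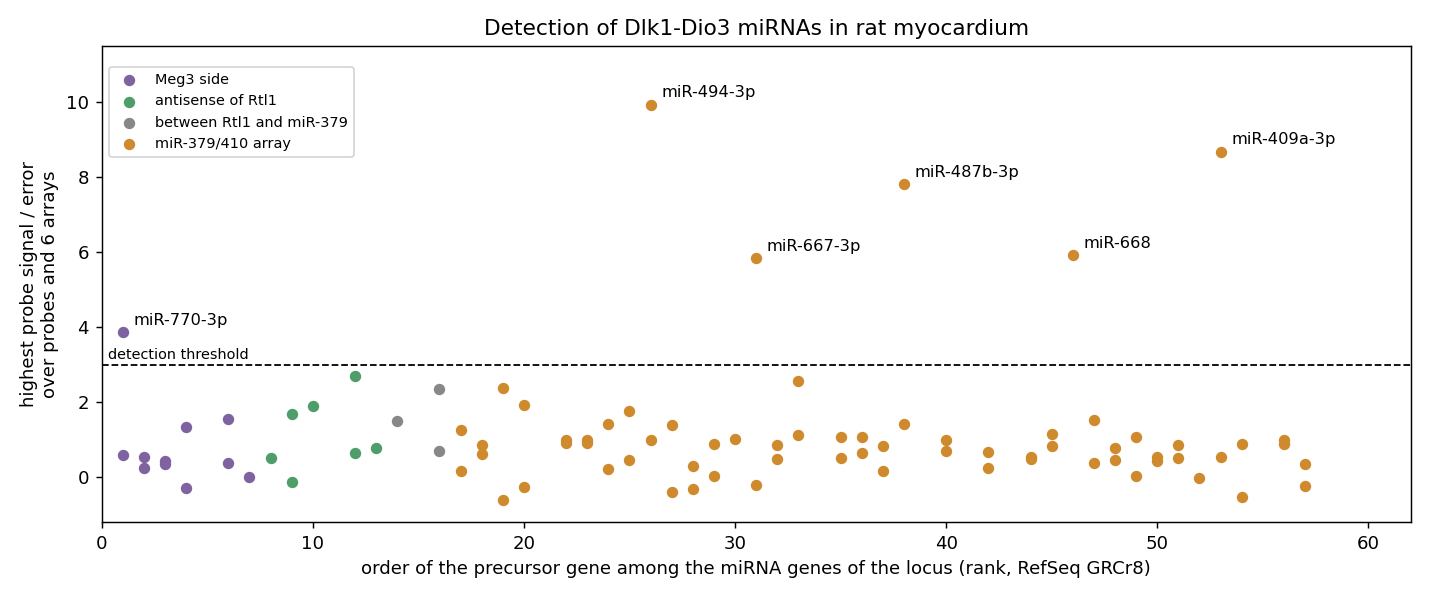
Highest ratio of probe signal to error over the probes and the 6 arrays (y axis) for the 88 members with a position, against the rank of the precursor gene among the 57 miRNA genes of the locus (x axis). The dashed line is the threshold of 3; the 6 named miRNAs lie above it, and the highest point below it, miR-434-3p, is at 2.70.

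The 84 undetected members include miRNAs by which the region is best known. Examples are miR-127-3p, from the strand antisense to Rtl1, miR-379-5p and miR-410-3p, which name the ends of the large array, miR-134-5p, known from neuronal dendrites, and the miR-376 family, known for editing of its precursors.
miR-127-3p: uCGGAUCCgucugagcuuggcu
miR-434-3p: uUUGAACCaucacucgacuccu
miR-379-5p: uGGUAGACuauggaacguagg
miR-134-5p: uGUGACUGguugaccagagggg
miR-376a-3p: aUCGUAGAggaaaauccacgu
miR-376b-3p: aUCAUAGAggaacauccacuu
miR-410-3p: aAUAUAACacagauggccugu

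With every probe summed whatever its detection, an undetected member had a median signal between -0.26 and 0.21 array units on the 6 arrays. For the 438 other miRNAs that were detected on no array it was between -0.31 and -0.072. The signal at which the most sensitive probe of an undetected member would have counted as detected had a median of 2.16 to 2.87 array units on the 6 arrays, and for single members it was as low as 1.08 and as high as 2.94. A level under a member's own threshold could not be measured. The ratio of signal to error of the best probe had a median of 0.12 to 0.40 per array, and it exceeded 2 on at least 1 array for 4 of the 84. These were miR-434-3p at up to 2.70, miR-376b-3p at up to 2.56, miR-299b-5p at up to 2.38 and miR-370-3p at up to 2.34, named after their values were seen. Counted by single spots, 6 of the 8064 spot readings of undetected members were well above background by the scanner software, or 0.0744%, with 3 on control array 1 and 3 on model array 1. These 6 came from 6 different miRNAs. In the authors' normalized log2 values, all 84 held 1 identical value on each array, between -3.31 and -3.22 depending on the array, which is no measured level.

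MiR-434-3p and miR-127-3p, both antisense to Rtl1, are examples of undetected members. Their highest ratios of probe signal to error were 2.70 and 1.89, under the threshold of 3. Each all-probe signal below is a sum over 2 probes, so it cannot be set against the threshold of a single probe. The all-probe signal of miR-434-3p was 3.08, 3.73 and 4.05 in control rats and 2.26, 3.04 and 2.84 in model rats. These unscaled values did not overlap between the groups. Of the 214 detected miRNAs fitted below, 47.2% did not overlap, but in scaled sums of detected probes, which is another measure. The share among undetected miRNAs in all-probe sums was not computed, so the separation of this miRNA has no like share beside it. That of miR-127-3p was 2.86, 2.02 and 2.24 in control rats and 1.73, 2.44 and 0.81 in model rats, with overlapping groups. Neither value counts as a measured level, and no difference was tested.

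The summed signal of the detected members was 119, 135 and 130 array units in control rats and 111, 146 and 124 in model rats, and the groups overlapped. The means were 128 ± 8.26 (SD, n = 3) and 127 ± 17.6 (SD, n = 3). As a share of the summed signal of all detected miRNAs this was 0.1996%, 0.160% and 0.225% in control rats and 0.155%, 0.215% and 0.193% in model rats.

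Among the 6 detected members, miR-494-3p and miR-409a-3p were read by every one of their spots. MiR-494-3p has been studied in the heart for its part in injury by ischemia and reperfusion. Its signal was 67.0, 76.8 and 72.3 in control rats and 61.4, 83.8 and 72.5 in model rats. The model arrays held both the lowest and the highest value. Its 16 spots were well above background on each of the 6 arrays, and the coefficient of variation of the spots of a probe had a median of 6.21%. Its 2 probes were unequal, as 1 read 6.91 to 9.37 array units over the arrays and the other 54.5 to 74.4.

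MiR-409a-3p belongs to a miRNA family studied in vessel growth. Its signal was 24.8, 27.4 and 25.8 in control rats and 18.3, 26.0 and 24.9 in model rats. Model array 1 was the lowest of all, and the other two model arrays lay among the control values. All 3 of its probes were detected on all 6 arrays, with 16 of 16 spots well above background.

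MiR-667-3p gave 10.05, 10.3 and 10.1 in control rats and 8.60, 12.6 and 9.46 in model rats. The SD was 0.12 among controls and 2.10 among model rats (n = 3 each), and the control values lay within the range of the model values.

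MiR-487b-3p, which has been studied in the wall of the aorta, gave 6.36, 10.5 and 10.6 in control rats and 16.3, 11.6 and 7.28 in model rats. The highest value was on model array 1, the array on which the other 4 members detected everywhere were lowest, and the groups overlapped. On control array 1 the first of its 2 probes read 2.94 array units and fell just short of 3 times its error. With this probe included, the control signals were 9.30, 10.5 and 10.6.

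MiR-668 gave 7.69, 9.997 and 7.79 in control rats and 3.51, 9.06 and 7.67 in model rats. Model array 1 stood apart. There 2 of its 4 probes fell under the threshold, and 0 of its 16 spots were well above background, against 3 to 11 on the other arrays. With all 4 probes summed, the value on model array 1 was 5.77.

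MiR-770-3p, whose precursor overlaps Meg3, was the dimmest. It was detected through 1 of its 2 probes, at 2.98 and 3.62 on control arrays 1 and 3 and at 3.05, 2.99 and 2.45 in model rats, and was not detected on control array 2. The best ratio of signal to error on control array 2 was 2.48, and on the other arrays it was 3.01 to 3.88. At most 2 of its 16 spots were well above background on any array. With both probes summed, the signals were 3.82, 4.00 and 5.63 in control rats and 4.62, 4.64 and 3.50 in model rats, and the groups overlapped.

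**Figure D3:**
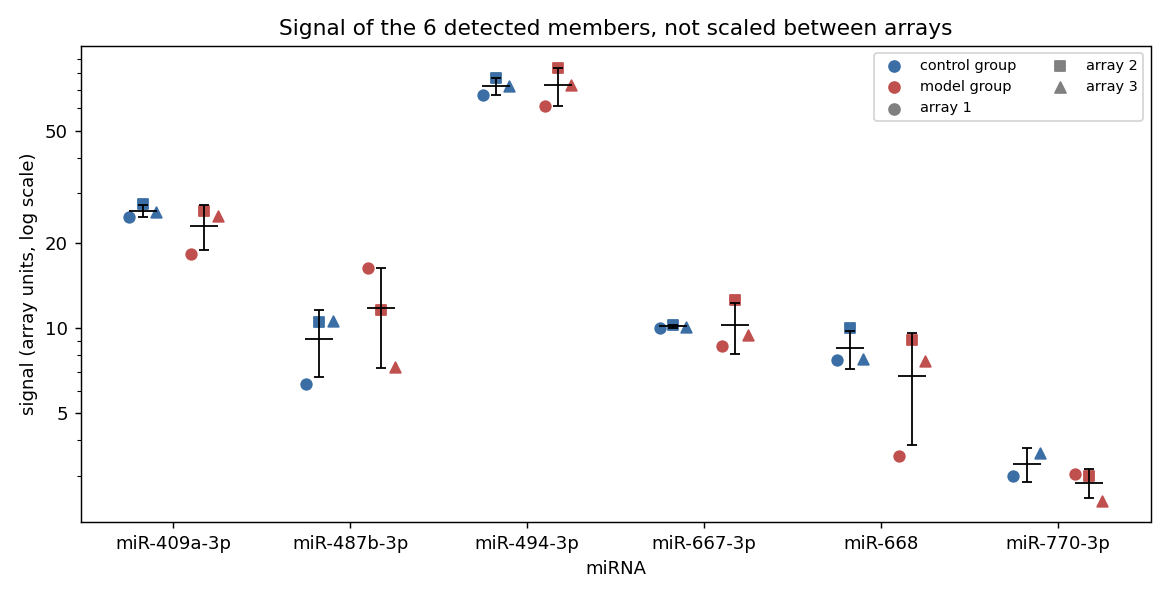
Signal of the 6 detected members in array units (y axis, log scale), before any scaling between arrays. Points are single arrays, control in blue and model in red, with a marker for each array number; black bars give the mean and SD of the detected values, 3 per group except 2 for miR-770-3p in the control group. For miR-494-3p the model arrays run from 61.4 to 83.8 and the control arrays lie within them, from 67.0 to 76.8, and model array 1 is the lowest point for miR-409a-3p and miR-668.

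**Figure D4:**
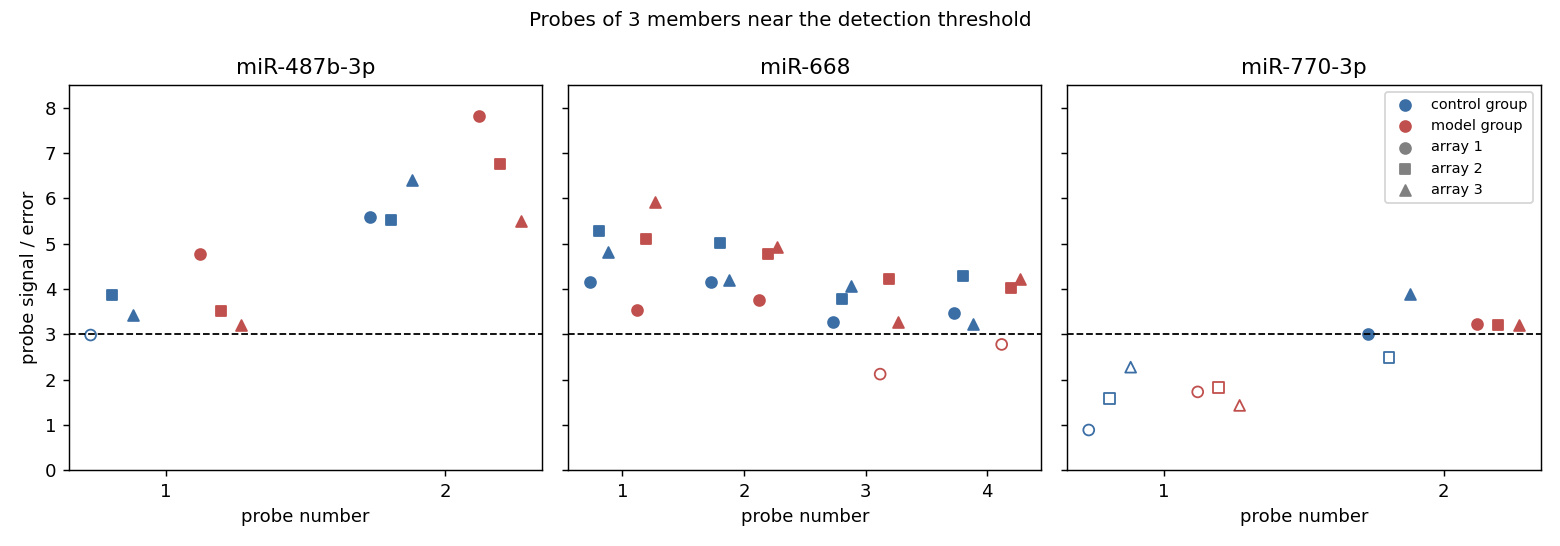
Ratio of probe signal to error (y axis) for each probe (x axis) of miR-487b-3p, miR-668 and miR-770-3p on the 6 arrays. Filled points count as detected, open points do not, and the dashed line is the threshold of 3. Open points are 1 probe of miR-487b-3p on control array 1 and 2 probes of miR-668 on model array 1. The first probe of miR-770-3p is open on all arrays, and its second probe is open on control array 2.

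To compare the groups, signals were scaled within each array to the upper quartile (75th percentile) of 198 miRNAs that all 6 arrays detected, raised to a common floor of -6.50 on the log2 scale where they lay under it, and taken to log2. Values were then fitted with limma, with Benjamini-Hochberg adjustment over the 214 miRNAs that all arrays of the control or of the model group detected. The 6 detected members were among the 214, and the other 84 were not. An adjusted p under 0.05 was reached by 0 of the 6 members, where it was reached by 22.9% of all 214 miRNAs. At an unadjusted p under 0.05 the number was also 0, against 37.9% of the 214, and the methods' t-test after adjustment also gave 0. With an adjusted p under 0.05 and a fold over 2 together it was 0 of 6, against 5.14%. Of the 6 members, 5 had a log2 difference below 0, as had 64.0% of the 214. The median log2 difference, model minus control, was -0.25 for the 6 members and -0.14 for the 214, and -0.15 for the 198 used in scaling. The 6 passed the filter by being detected, so these numbers do not speak for all 90.

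The largest difference was that of miR-668, with scaled log2 signals of -4.23 ± 0.0095 among controls and -4.91 ± 0.82 among model rats (SD, n = 3). Its log2 difference was -0.67 (standard error 0.40, 95% interval -1.66 to 0.31, adjusted p = 0.255 in limma). After scaling it was the 1 member of 6 whose groups did not overlap, though its unscaled signals did, where 47.2% of the 214 miRNAs had groups that did not (p = 0.10 in a two-sided exact permutation test, which cannot go lower with 3 rats per group). With all of its probes summed, the log2 difference was -0.43 (adjusted p = 0.153 in limma).

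MiR-409a-3p followed, with a log2 difference of -0.43 (standard error 0.21, 95% interval -0.94 to 0.081, adjusted p = 0.178 in limma). The log2 differences of miR-667-3p and miR-494-3p were -0.25 (95% interval -0.72 to 0.22) and -0.24 (95% interval -0.66 to 0.18), with adjusted p of 0.354 and 0.321 in limma. That of miR-770-3p was -0.25 (95% interval -0.99 to 0.50, adjusted p = 0.558 in limma), with control array 2 held at the floor. MiR-487b-3p was the only one of the 6 above 0, at 0.083 (95% interval -0.62 to 0.78, adjusted p = 0.861 in limma). As folds of model over control, the interval ran from 0.32 to 1.24 for miR-668, from 0.65 to 1.72 for miR-487b-3p and from 0.63 to 1.13 for miR-494-3p, so that changes within these limits could not be told from the spread between rats.

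The differences depended on the scaling. The divisor of each array was 145, 189 and 146 in control rats and 203, 193 and 168 in model rats. After division, control array 3 was the highest for 4 of the 5 members detected everywhere and model array 1 the lowest for 4 of the 5. Without scaling, the log2 differences of miR-494-3p and miR-667-3p were 0.00059 and -0.0081, that of miR-770-3p was 0.12, and that of miR-409a-3p was -0.19. With each array centred on the median deviation of the miRNAs detected on all arrays, the 6 differences ran from -0.55 for miR-668 to 0.21 for miR-487b-3p.

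**Figure D5:**
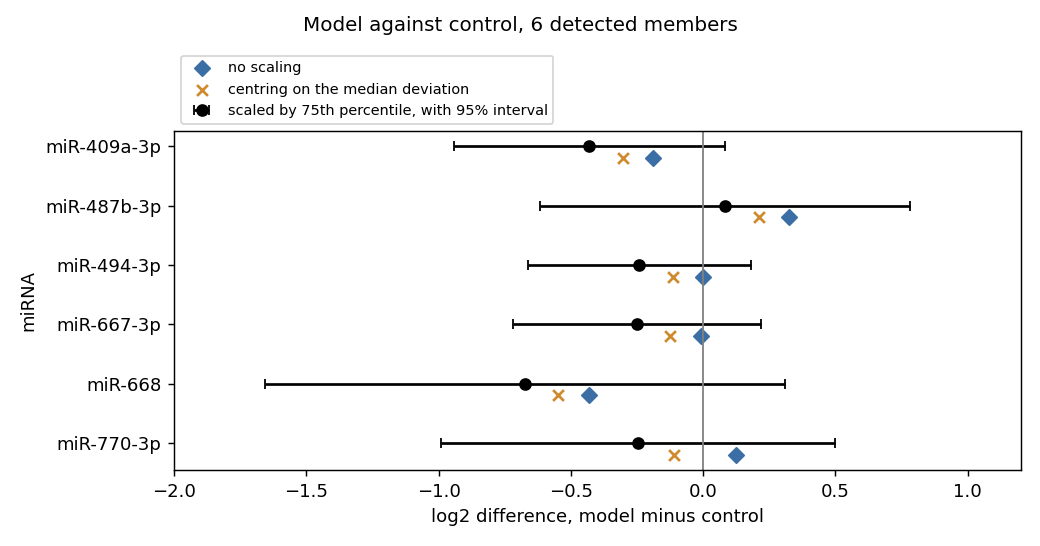
Log2 difference between the groups, model minus control (x axis), for the 6 detected members. Black points are values after scaling by the 75th percentile, with 95% intervals from limma (n = 3 per group); blue diamonds are without scaling and orange crosses with centring on the median deviation. Every interval crosses 0, and without scaling miR-494-3p and miR-667-3p lie at 0.00059 and -0.0081.

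Members were called in 3 settings. Scaled to the upper quartile over all miRNAs instead of the detected ones, miR-409a-3p had an adjusted p of 0.0484 in limma, at a log2 difference of -0.56. With slide row as a block, miR-668 and miR-409a-3p also passed, at log2 differences of -1.62 and -0.86. The 3 control arrays and model array 1 lay in row 1 and model arrays 2 and 3 in row 2, so this fit compares model array 1 alone with the control arrays. Without control array 2, where miR-770-3p was not detected, that miRNA had a log2 difference of -0.60 (adjusted p = 0.0386 in limma). In that fit 26 of 214 miRNAs had an adjusted p under 0.05. Without control array 1 or 3 the log2 difference of miR-770-3p was -0.042 or -0.019 (adjusted p = 0.952 and 0.981 in limma). Without model array 1, the log2 difference of miR-668 was -0.22 (adjusted p = 0.0740 in limma) and that of miR-409a-3p was -0.23 (adjusted p = 0.211 in limma). In the same fit miR-667-3p was at -0.10 and miR-494-3p at -0.091.

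Other miRNAs of the same stretch of chromosome were read the same way. Between the outermost member genes, 10 further miRNAs on the array are annotated, and 2 of them were detected, each on all 6 arrays. They are shown because they lie among undetected members. MiR-3544 comes from the strand opposite to miR-337, at chr6:134321165-134321187, and miR-1188-3p lies next to miR-341, at chr6:134348201-134348217 on the plus strand.
miR-3544: aACUCCUGcaugacgccguuccc
miR-1188-3p: cGAGGCUCcccaccaca

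The signal of miR-3544 was 13.9, 17.8 and 15.1 in control rats and 11.3, 16.4 and 14.3 in model rats. That of miR-1188-3p was 14.5, 14.8 and 16.3 in control rats and 12.1, 14.3 and 13.995 in model rats. For both, model array 1 was the lowest. Their log2 differences were -0.41 (adjusted p = 0.156 in limma) and -0.42 (adjusted p = 0.152 in limma).

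By base composition, the share of G and C in the 6 detected members ran from 43.5% to 70.6% with a median of 59.3%. In the 82 undetected members with a sequence it ran from 23.8% to 72.7% with a median of 47.8%. Over all 685 miRNAs of the array with a sequence, the medians were 50% for those detected and 47.6% for those not detected. MiR-770-3p has 17 bases, the shortest length among the members, and the others detected have 20 to 24. These are descriptions of 6 sequences, with no test.

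MiRNAs of other imprinted loci gave a different count. Of 16 such miRNAs on the array (from the Mest, H19, Igf2 and Gnas loci and the intron of Sfmbt2), 9 were detected at least once, or 56.2%, and 7 on all arrays. The 9 include miR-466b-2-3p, miR-466b-3p, miR-466b-5p and miR-466c-3p, all of the Sfmbt2 intron. MiR-675-3p and miR-675-5p of H19 were not detected. Of the 8 that entered the fit, 1 was higher in the model group, miR-335, and 1 was lower, miR-483-5p, where 10.3% of the 214 were higher and 12.6% lower. The difference in the share detected was not tested.

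The arrays carried the markers of heart tissue. Of 6 cardiomyocyte miRNAs, 5 were detected, with miR-208b-3p not detected. Of the 5 in the fit, 3 were lower in the model group, and the summed signal of the list was 16568 to 26038 array units among controls and 11750 to 15851 among model rats. All 4 fibroblast-related miRNAs (miR-199a-5p, miR-199a-3p, miR-214-3p and miR-21-5p) were detected and higher, with sums of 561 to 863 and 1770 to 2772. The authors list all 4 as raised on these same arrays, so this was known beforehand. Of the 214 miRNAs fitted, 10.3% were higher and 12.6% lower. Of 5 leukocyte miRNAs 4 were detected, with 1 higher and 1 lower. Both endothelial miRNAs were detected and lower, and of 3 red blood cell miRNAs 2 were detected, 1 of them lower. Of 6 neuronal miRNAs only miR-218a-5p was detected, and miR-124-3p, miR-9a-5p, miR-9a-3p, miR-137-3p and miR-129-5p were not detected on any array, nor were the 2 endocrine ones, miR-375-3p and miR-7a-5p. The tissue is a mixture of cells, so fewer cells of a type and less RNA per cell cannot be told apart. The part of the cell mixture in the values of the 6 members was not tested.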

How the data were processed

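The authors deposited Agilent Feature Extraction 10.7.1.1 output for 6 arrays, with background-subtracted intensity that had no scaling across arrays, and normalized log2 values whose method is not given in the sources used here. Members, lists, position groups and alternatives were chosen with earlier results of these data known. All members detected on every array of a group were named, and undetected members were named from their values only where stated. For miR-487b-3p on control array 1 and miR-770-3p on the 5 arrays where it was detected, the deposited total intensity exceeded the sum of the detected probes (207 against 6.36 for miR-487b-3p), so the sum of detected probes was used and the deposited total kept as an alternative. The rule matched the deposited detection flag for every miRNA and array (0 differences).

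The group comparison used limma 3.58.1 (R 4.3.3), with no covariate. An exact permutation test was also run for each of the 6 members, with p from 0.10 to 0.80. The alternatives were the deposited total, all probes summed (chosen after the data were seen), averaged processed signal, normexp (offset 50), scaling to the upper quartile over all miRNAs, to quantiles, to the median deviation or not at all, a floor of 1, no filter or a filter for all 6 arrays, an intensity trend, the methods' t-test, a block for replicate number or for slide row, the authors' log2 values and leaving out each array. All 6 arrays shared 1 slide and 1 scan time, so no block for these was run. The fit was tested on simulated data. The planted changes were larger than the log2 differences of the 6 members in the group comparison, so changes of that size were not tested. Other steps used Python 3.11.15 with matplotlib 3.10.9, numpy 2.4.6 and pandas 2.3.3. Precision is limited by the 3 arrays per group and the detection threshold.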

Additional observations from a re-analysis of the deposited data

How the results depend on the processing

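Of 22 alternatives to the comparison, 19 left 0 members with an adjusted p under 0.05. The count was 1 when scaled to the upper quartile over all miRNAs, where 66 of the 214 miRNAs fitted passed. With each array left out it was 0 to 1. The 1 was without control array 2, where 26 of 214 passed. Slide row as a block also gave calls, but that fit sets model array 1 alone against the control arrays. The replicate block gave 0 members (lowest adjusted p of a member 0.246) and 16 miRNAs in all against 49 in the fit without it. The labels give no source for a pairing, the deviations of same-numbered arrays correlated at -0.26, 0.0011 and 0.16 for numbers 1, 2 and 3, and not every array correlated best with its own number. The median log2 difference of the fitted members was 0.00017 with the deposited totals, -0.0037 without scaling, 0 without a filter, where most of the 90 lie at the floor, -0.59 with the row as a block, and -0.45 to -0.19 with each array left out. Signs changed for 4 uncalled members. MiR-487b-3p was at -1.25 with the deposited totals, -0.10 with all probes, -0.091 with averaged signals, -0.13 with normexp, -0.043 when scaled to the upper quartile over all miRNAs, and -0.16 to 0.30 with each array left out. MiR-494-3p was at 0.099 with the deposited totals and 0.00059 without scaling, and miR-667-3p at 0.090 with the deposited totals. MiR-770-3p was at 1.00 with the deposited totals, 0.12 without scaling, 0.11 with the floor of 1 and 0.40 with the authors' values. The causes were not tested. The deposited totals exceeded the sum of the detected probes for miR-487b-3p and miR-770-3p. For miR-494-3p and miR-667-3p the deposited totals and the probe sums were the same apart from rounding. With a probe threshold of 5 times the error, the mean number of members detected was 3.67 among controls and 4.33 among model rats. The mean summed signal in the control and model groups was 147 and 130 with all probes of all 90 members, the undetected ones included. With the deposited totals of the detected members it was 215 and 157. The sum on control array 1 was then 350, of which miR-487b-3p held 207, against 135 and 161 on control arrays 2 and 3. The lowest signal of any detected miRNA was 1.16 to 1.60 array units per array.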
